A study of Homo sapiens with 8 samples.

Results

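The comparison described here set both SETDB1 constructs together against the empty vector in HT144, an established human melanoma cell line, and asked which genes differed in both. All 8 arrays of the series entered it: 5 construct arrays and 3 control arrays. The members were chosen by the expression label alone. The control group carried an empty vector (n = 3), 1 construct group was labelled SETDB1 overexpressing (SETDB1 OE, n = 2), and the other was labelled as overexpressing mutant HC/KA-SETDB1 (HC/KA-SETDB1 OE, n = 3). All 3 groups were HT144 cells, so the controls shared the cell line and carried a vector too. What HC/KA stands for, the vector, its promoter, and whether a group was 1 clone or a pool are not stated in the material at hand. The labels do not say that replicates were grown separately, so p-values cover the spread of these samples, possibly only technical. Total RNA was hybridised to 1 Illumina bead array per sample, which reads each gene as the brightness of probe-coated beads.

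SETDB1 is an enzyme that adds methyl groups to lysine 9 of histone H3, a mark of closed chromatin. It is recruited to DNA largely through KRAB zinc finger proteins and their partner TRIM28, and it is known for silencing retroelements, zinc finger gene clusters and germline genes. In melanoma it has been studied as a gene that is amplified and that speeds tumour growth. Melanoma cells also move between a pigmented state driven by MITF and SOX10 and a dedifferentiated, invasive state marked by AXL and EGFR, which is why both gene lists were examined.

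The contrast weighted the construct groups equally: the mean of the SETDB1 OE mean and the HC/KA-SETDB1 OE mean, minus the empty vector mean. It was fitted with limma to 13974 genes with a term per group, on normalized log2 intensity. A value of 1 in that contrast could therefore come from a difference of 1 in each construct or from a difference of 2 in a single construct. For many genes both construct values are given, and for some also the test of the difference between the constructs. Where only a pooled value is printed, it may rest mostly on 1 construct. The values of SETDB1 OE and of HC/KA-SETDB1 OE against empty vector share the same 3 control arrays and are set side by side only. A gene is described as carried evenly where both construct values had the same sign and the smaller was at least 0.5 of the larger.

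The arrays were alike in brightness, with a median raw intensity of 89.0 to 94.4 and 44.6% to 45.7% of probes detected. The labelled melanoma identity was checked against its markers: SOX10, MITF, MLANA, PMEL, TYR and S100B, 6 of 7 markers, were detected on all 8 arrays, and DCT had no passing probe. The summed normalized intensity of these markers ran from 12640 to 18620 in empty vector, from 6106 to 6309 in SETDB1 OE and from 7188 to 10690 in HC/KA-SETDB1 OE. Of 10 epithelial markers 4 had a passing probe and none was detected on every array, and EPCAM and CDH1 had no passing probe. Of 16 blood and immune markers 7 had a passing probe, with PTPRC and CD3E among those without. CD14, CD68 and FCGR3A were detected on all 8 arrays. The immune markers with a passing probe summed to 1392 to 1875 in empty vector, 1116 to 1368 in SETDB1 OE and 980.5 to 1939 in HC/KA-SETDB1 OE. Of 9 endothelial markers 3 had a passing probe, with PECAM1 and CDH5 among those without, and EGFL7 was detected on all 8 arrays. The fibroblast markers, 8 of 10 with a passing probe and PDGFRA and THY1 without, summed to 1216 to 2003 in empty vector, 984.5 to 1847 in SETDB1 OE and 2366 to 2641 in HC/KA-SETDB1 OE. The higher sum in HC/KA-SETDB1 OE came from COL1A2, a collagen chain with 1.24 there. A second COL1A2 probe, also detected on all 8 arrays, gave 0.39 there and 0.21 in SETDB1 OE, so the probes disagreed in size. The other 7 markers summed to 556.9 to 699.6 in empty vector, 372.0 to 594.2 in SETDB1 OE and 318.3 to 435.0 in HC/KA-SETDB1 OE, and 6 of the 8 markers had a negative pooled value, among them LUM (-1.01) and DCN (-0.64). The part of these markers in the results was not tested. The array of HC/KA-SETDB1 OE replicate 2 correlated more closely with empty vector replicate 3 (r = 0.987 across genes) than with either array of its own group (r = 0.978 at best). HC/KA-SETDB1 OE replicate 1 correlated at 0.969 at best with its own group and at 0.970 with empty vector replicate 1. Principal results are therefore also given without HC/KA-SETDB1 OE replicate 2, and the count of genes that passed also without HC/KA-SETDB1 OE replicate 1. Per the labels, all arrays sat on 1 chip with each group at neighbouring positions, so array position and group cannot be told apart.

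The targeted gene itself did not separate the pooled constructs from the control. SETDB1 read 8.25, 8.19 and 8.04 in empty vector, 8.0 and 7.66 on both arrays labelled as SETDB1 OE, then 8.32, 8.42 and 9.0 on the HC/KA-SETDB1 OE arrays (log2 intensity). Both arrays labelled SETDB1 OE lay below all 3 controls and all 3 HC/KA-SETDB1 OE arrays lay above them. The pooled log2 difference was 0.05 (SE 0.20, 95% interval -0.39 to 0.48, adjusted p = 0.981, limma), made of -0.33 and 0.42. SETDB1 OE minus HC/KA-SETDB1 OE was -0.75 (95% interval -1.29 to -0.21, adjusted p = 0.107). The gene was read from 1 probe, and whether that probe lies inside the sequence the constructs carry is not stated in the material at hand, so it does not settle the labels. Every direction below rests on arrays labelled SETDB1 OE on which this probe was not raised.

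No gene passed the test in the pooled comparison: 0 of 13974 had an adjusted p under 0.05 (limma, Benjamini-Hochberg), which is 0% of those tested. The smallest adjusted p was 0.0538, shared by 9 genes, and 20 genes lay under 0.1. Of all genes tested, 7164 had a positive pooled value and 6810 a negative one, the background for the sign counts of lists below. At an unadjusted p under 0.05 there were 1009 genes, 7.22% of those tested, with 475 higher in the constructs (3.4%) and 534 lower (3.82%). All 5 construct arrays lay above all 3 controls for 285 genes (2.04%) and below them for 334 (2.39%), and 405 of these 619 genes also had an unadjusted p under 0.05. The same fit called 606 genes between the constructs, 4.34% of those tested, with 290 higher in SETDB1 OE and 316 lower. It called 37 genes for SETDB1 OE against empty vector (0.265%) and 45 for HC/KA-SETDB1 OE against empty vector (0.322%). The count of 0 depended on the setting. With the replicate number as a block, 4 genes passed: MMP3 and SCG5 stood higher, PYCARD and DKK3 lower. With weights estimated per array 30 genes passed. Without HC/KA-SETDB1 OE replicate 2 there were 5, namely MMP3 higher and CEACAM1, PMEL, ISG20 and SPATS1 lower, but without HC/KA-SETDB1 OE replicate 1 there were 0. Without SETDB1 OE replicate 2 there were 12, and without empty vector replicate 2 there were 2. The 606 genes between the constructs numbered 41 to 1315 when 1 array was left out, lowest without SETDB1 OE replicate 1 and highest without HC/KA-SETDB1 OE replicate 2.

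**Figure D1:**
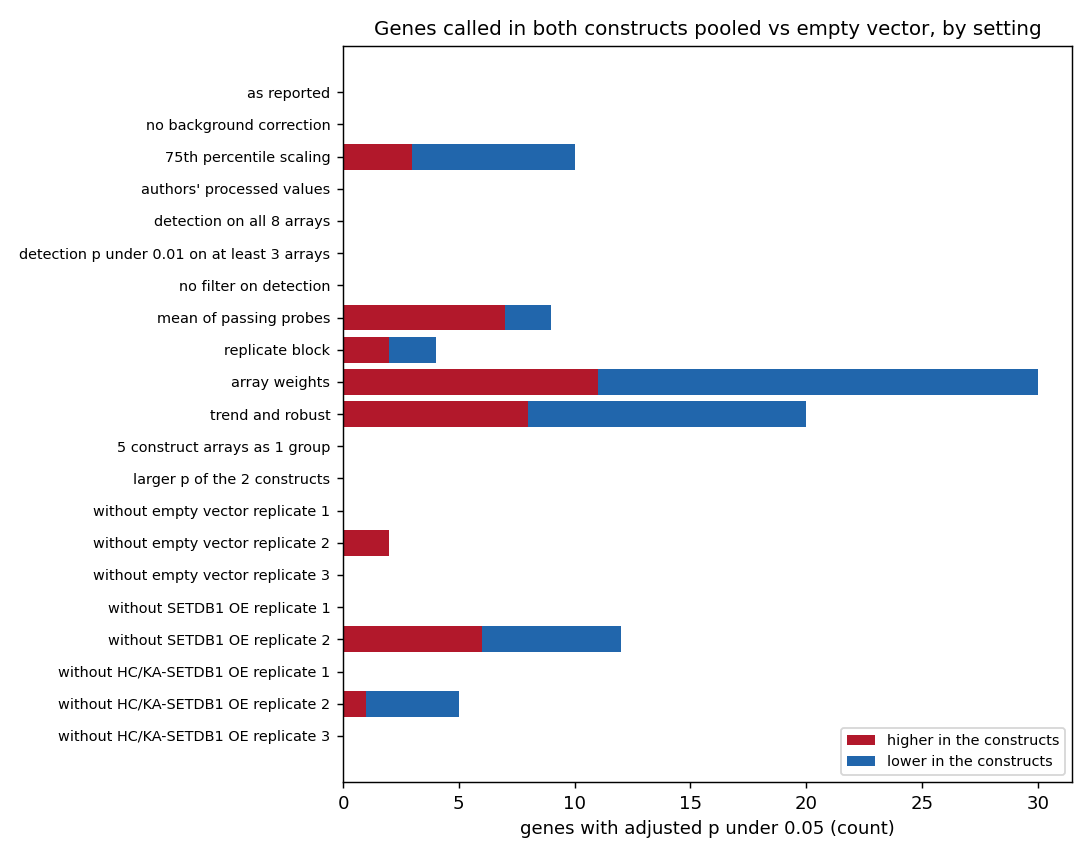
Number of genes with an adjusted p under 0.05 in the pooled comparison (horizontal axis, a count from 0) under the reported setting and each of 20 alternatives (vertical axis), split by direction. The reported setting gives 0 genes, array weights give 30, and trended robust variances give 20.

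Among the 20 genes of smallest p, 7 were carried evenly, 9 mostly by SETDB1 OE and 4 mostly by HC/KA-SETDB1 OE. For 13 of these 20 genes the test of the difference between the constructs passed, against 4.34% of all genes tested. The 20 were picked by the pooled p from the same arrays, and a large value in a single construct enters both tests, so nothing is read from that excess. Of the 20, 8 had no overlap between construct and control arrays. MMP3, a metalloprotease that cuts matrix proteins, read 4.62, 5.48 and 4.55 in empty vector, 8.96 and 8.64 in SETDB1 OE and 4.75, 4.97 and 4.93 on the HC/KA-SETDB1 OE arrays. Its pooled value of 1.96 (SE 0.23, adjusted p = 0.0538) was thus the average of 3.92 in SETDB1 OE and 0.00059 in HC/KA-SETDB1 OE. THBS1, a secreted matrix glycoprotein, gave 1.57 pooled (SE 0.23, adjusted p = 0.0538) from 3.33 and -0.19. DKK3, a Dickkopf-related glycoprotein, gave -1.79 (SE 0.26, adjusted p = 0.0538) from 0.68 and -4.26, and it was not detected on any HC/KA-SETDB1 OE array, so the last value is no exact difference. Empty vector was at least 18.4-fold higher than HC/KA-SETDB1 OE, taking the lowest detected signal of each undetected array as its limit. For such genes the pooled number matches neither construct.

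**Figure D2:**
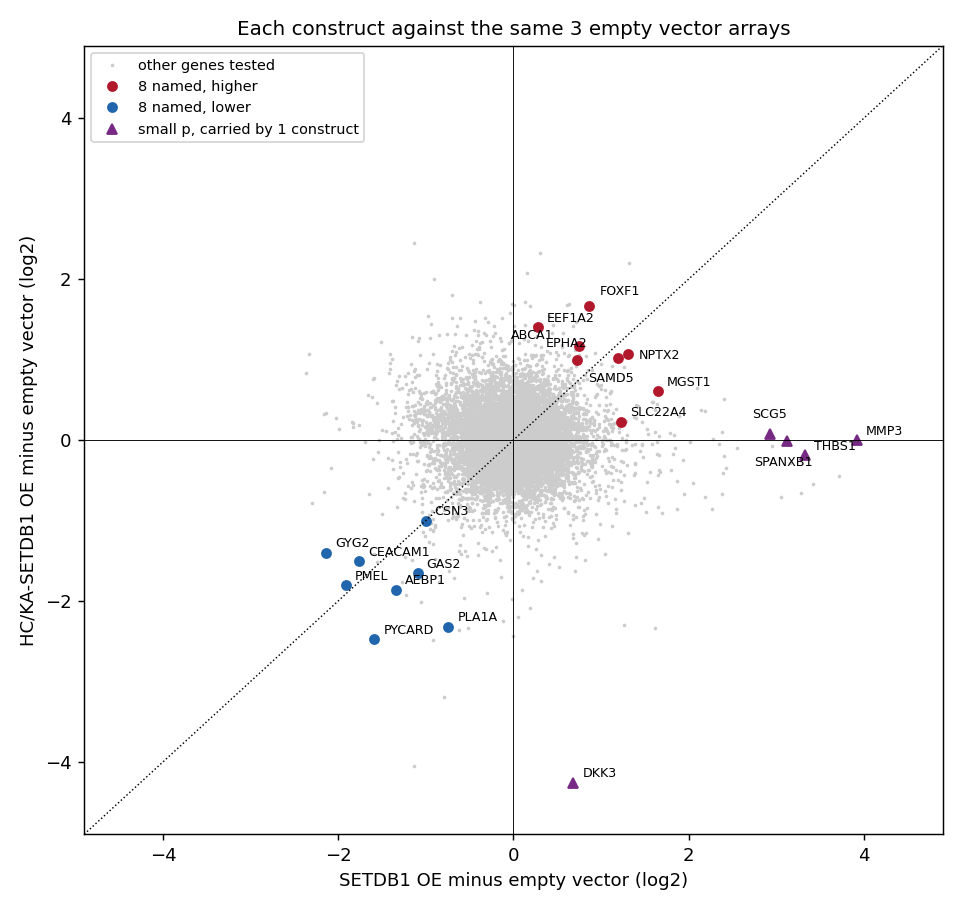
Log2 difference from empty vector of each of 13974 genes in SETDB1 OE (horizontal axis) and in HC/KA-SETDB1 OE (vertical axis). Both axes use the same 3 empty vector arrays, so the cloud's shape is not a measure of likeness. The dotted line marks equal values. Named lower genes such as PMEL lie near that line, while MMP3 and THBS1 lie along the horizontal axis and DKK3 far below it.

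Genes that stood apart on all 5 construct arrays are named by smallest p, 8 in each direction, and since that choice used the contrast their values are a description. Of these 16, 12 were carried evenly, 2 mostly by SETDB1 OE and 2 mostly by HC/KA-SETDB1 OE. The difference between the constructs passed the test for 3 (4.34% of all genes tested). Asking that all 5 construct arrays lie beyond the controls favours genes carried evenly, so nothing is read from these counts. Pooled log2 values ran from 0.73 to 1.27 on the higher side and from -1.0 to -2.03 on the lower side. All 16 kept their sign with no background correction and on the authors' processed values, but 9 were smaller by over 1.5 times under each of these settings: SAMD5, FOXF1, SLC22A4, EPHA2, CSN3, GAS2, PYCARD, PLA1A and CEACAM1. On the authors' processed values FOXF1 was 0.50, EPHA2 0.53, SAMD5 0.31, SLC22A4 0.30, GAS2 -0.55, CSN3 -0.39, PLA1A -0.76 and CEACAM1 -1.06. The values of PMEL (-1.77), NPTX2 (1.06) and EEF1A2 (0.79) moved least.

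PYCARD, the adaptor that links inflammasome sensors to caspase-1, had the largest pooled value of the 16. It read 7.14, 7.15 and 7.0 in empty vector, 4.78 and 6.24 in SETDB1 OE and 4.49, 4.63 and 4.74 on the HC/KA-SETDB1 OE arrays. Controls lay within a narrow band, SETDB1 OE replicate 2 lay nearest to them, and all HC/KA-SETDB1 OE arrays were at the low end, where 1 of 3 was detected. The pooled log2 difference was -2.03 (SE 0.28, 95% interval -2.65 to -1.42, adjusted p = 0.0538, limma), or 4.09-fold lower, but it was -1.01 with no background correction and -0.95 on the authors' processed values. The constructs gave -1.59 and -2.48, and their difference of 0.89 (95% interval 0.12 to 1.65) did not pass (adjusted p = 0.164). PYCARD passed under 6 of 19 alternatives, with an adjusted p from 0.00371 to 0.378 across those other than the larger of both constructs' p-values, where it was 1.

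CEACAM1, an adhesion molecule of pigmented melanoma cells and many epithelia, read 8.08, 7.88 and 7.96 in empty vector, 6.01 and 6.41 in SETDB1 OE and 5.92, 7.05 and 6.44 on the HC/KA-SETDB1 OE arrays. Construct arrays of both kinds were interleaved and the nearest to the controls, HC/KA-SETDB1 OE replicate 2, was still below them. The pooled difference was -1.63 (SE 0.24, adjusted p = 0.0546), from -1.76 and -1.51. The gap between the constructs was -0.26 (95% interval -0.92 to 0.41). Its 2 other passing probes also had all 5 construct arrays below the controls, at -1.57 and -1.17. Without HC/KA-SETDB1 OE replicate 2 the value was -1.78 and passed (adjusted p = 0.043; 0.0228 to 0.378 over the alternatives, apart from the larger of both constructs' p-values).

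AEBP1, a secreted and nuclear protein linked to collagen-rich matrix, read 8.09, 8.54 and 8.69 in empty vector, 6.63 and 7.57 in SETDB1 OE and 6.76, 6.26 and 6.72 on the HC/KA-SETDB1 OE arrays. SETDB1 OE replicate 2 again lay nearest to the controls. The pooled value was -1.60 (SE 0.25, adjusted p = 0.0565), from -1.34 and -1.86.

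GYG2, a glycogenin that primes glycogen synthesis, read 8.80, 7.90 and 8.68 in empty vector, 6.07 and 6.58 in SETDB1 OE and 6.34, 7.37 and 7.46 on the HC/KA-SETDB1 OE arrays. Its pooled value was -1.77 (SE 0.30, adjusted p = 0.0995), and a second probe gave -1.30 with the arrays again apart. Here the 2 SETDB1 OE arrays and HC/KA-SETDB1 OE replicate 1 were the lowest.

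GAS2, a growth-arrest protein that binds actin and microtubules, read 6.67, 5.98 and 6.09 in empty vector, 4.89 and 5.42 in SETDB1 OE and 4.68, 4.54 and 4.57 on the HC/KA-SETDB1 OE arrays, where it was not detected. Empty vector was at least 3.14-fold higher than HC/KA-SETDB1 OE, by the same limit. The pooled value was -1.37 (SE 0.21, adjusted p = 0.0561), while a second, dimmer GAS2 probe gave -0.04. The 2 probes thus disagreed.

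PLA1A, a secreted phospholipase, read 7.27, 6.83 and 7.35 in empty vector, 6.09 and 6.72 in SETDB1 OE and 4.52, 5.01 and 4.96 on the HC/KA-SETDB1 OE arrays. The pooled value was -1.53 (SE 0.22, adjusted p = 0.0538), mostly carried by HC/KA-SETDB1 OE (-2.32 against -0.74, adjusted p of the difference = 0.0136). CSN3, a milk casein, read 5.67, 5.68 and 5.14 in empty vector and between 4.45 and 4.53 on all 5 construct arrays, none of which detected it. It was at least 1.91-fold higher in empty vector than in the constructs (fitted log2 value -1.0, adjusted p = 0.105).

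**Figure D3:**
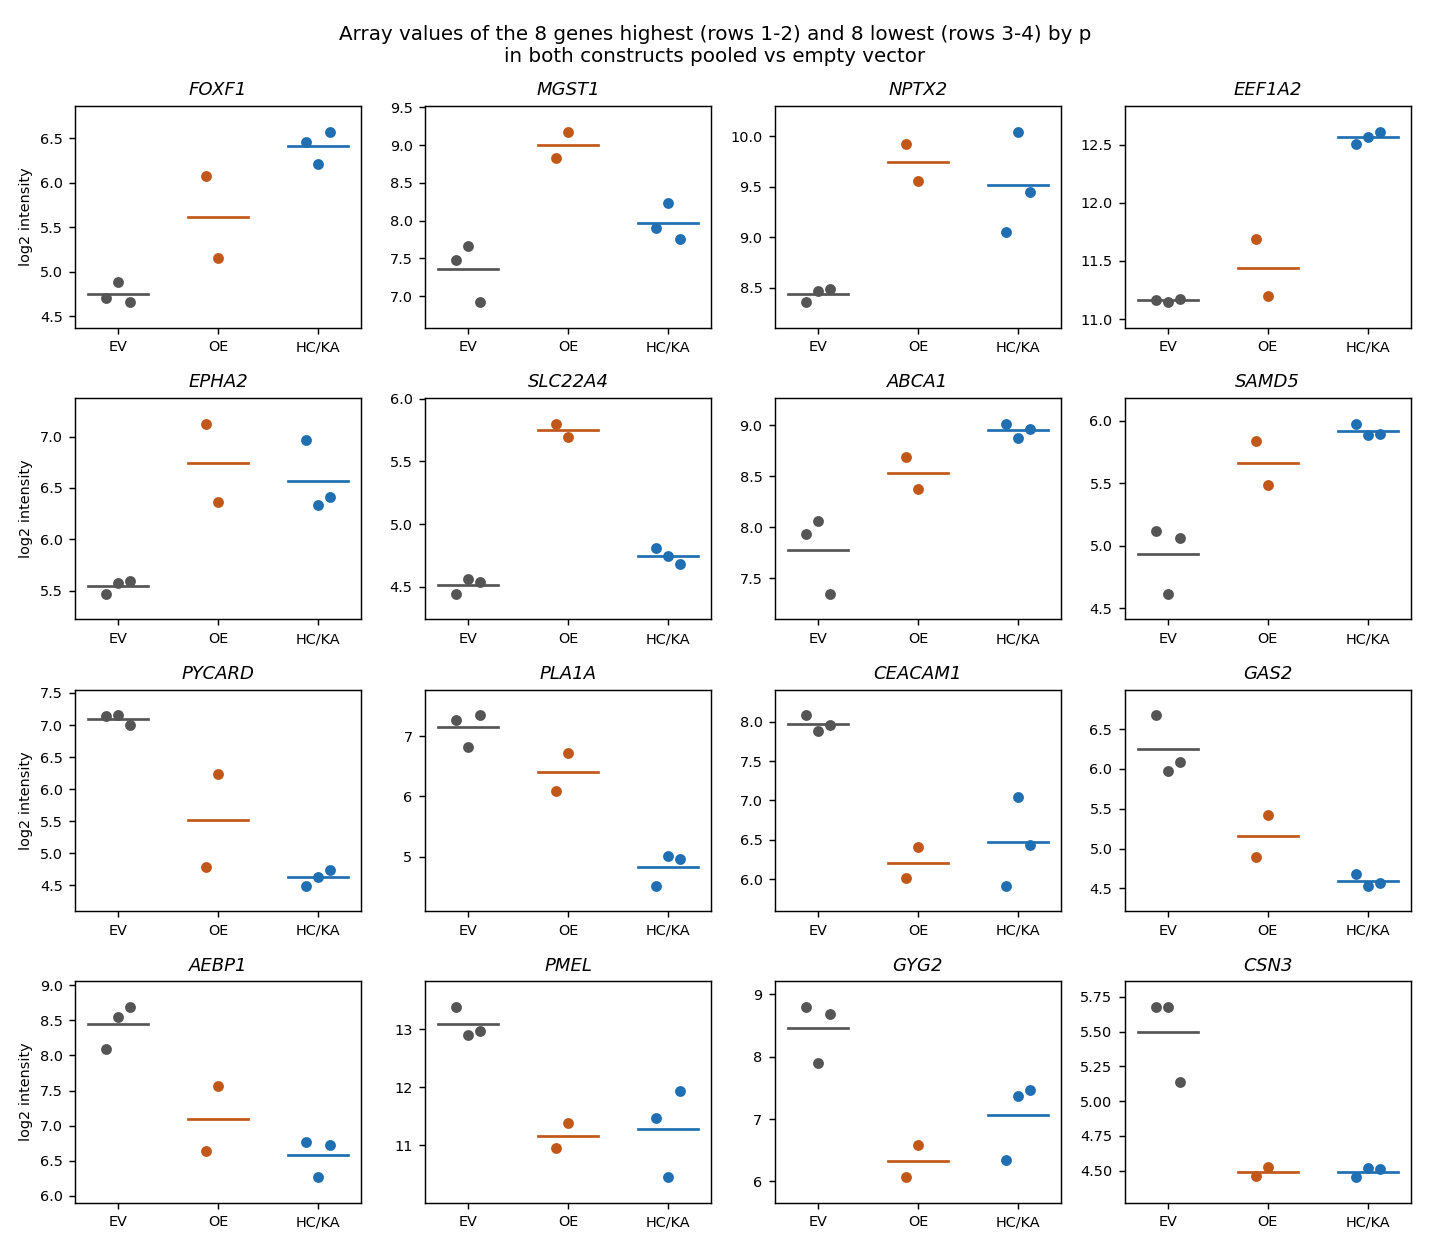
Normalized log2 intensity (vertical axes, which differ between panels and do not start at 0) of the 16 named genes on each array (points) with the group mean (lines), for empty vector (EV, n = 3), SETDB1 OE (OE, n = 2) and HC/KA-SETDB1 OE (HC/KA, n = 3). PMEL, CEACAM1 and CSN3 have nearly level construct means, while EEF1A2 and SLC22A4 are set apart by a single construct.

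On the higher side, FOXF1, a forkhead transcription factor of mesenchyme, read 4.70, 4.88 and 4.66 in empty vector, 6.08 and 5.15 in SETDB1 OE and 6.46, 6.21 and 6.57 on the HC/KA-SETDB1 OE arrays. All 5 construct arrays lay above the controls, with SETDB1 OE replicate 2 the nearest. The pooled difference was 1.27 (SE 0.22, 95% interval 0.78 to 1.75, adjusted p = 0.0995, limma), from 0.87 and 1.67.

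NPTX2, a secreted pentraxin that gathers glutamate receptors at synapses, read 8.36, 8.47 and 8.49 in empty vector, 9.93 and 9.56 in SETDB1 OE and 9.05, 10.04 and 9.44 on the HC/KA-SETDB1 OE arrays. The construct arrays were interleaved, with the highest being HC/KA-SETDB1 OE replicate 2. The pooled value was 1.19 (SE 0.22, adjusted p = 0.125), and the constructs differed by 0.23 (95% interval -0.39 to 0.85).

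EPHA2, a receptor tyrosine kinase for ephrins, read 5.47, 5.58 and 5.59 in empty vector, 7.13 and 6.36 in SETDB1 OE and 6.96, 6.33 and 6.41 on the HC/KA-SETDB1 OE arrays. Its pooled value was 1.11 (SE 0.22, adjusted p = 0.152), with 1.20 and 1.02 in the constructs. The controls spanned a small part of the gap to the lowest construct array.

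ABCA1, the transporter that moves cholesterol out of cells, read 7.93, 8.06 and 7.35 in empty vector, 8.69 and 8.38 in SETDB1 OE and 9.02, 8.88 and 8.96 on the HC/KA-SETDB1 OE arrays, a pooled value of 0.96 (SE 0.20, adjusted p = 0.161). SAMD5, a protein with a sterile alpha motif domain, read 5.12, 4.62 and 5.06 in empty vector, 5.84 and 5.49 in SETDB1 OE and 5.98, 5.89 and 5.90 on the HC/KA-SETDB1 OE arrays, a pooled value of 0.86 (SE 0.18, adjusted p = 0.165). In both genes the HC/KA-SETDB1 OE arrays formed the tighter and higher group.

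The other higher genes leaned on a single construct. EEF1A2, an elongation factor with a restricted tissue pattern, read 11.17, 11.15 and 11.17 in empty vector, 11.69 and 11.20 in SETDB1 OE and 12.51, 12.57 and 12.61 on the HC/KA-SETDB1 OE arrays, a pooled value of 0.84 made of 0.28 in SETDB1 OE and 1.40 in HC/KA-SETDB1 OE (adjusted p of the difference = 0.018). MGST1, a membrane-bound glutathione transferase, gave 1.65 in SETDB1 OE and 0.61 in HC/KA-SETDB1 OE, with an adjusted p of the difference of 0.0522. Its 2 other passing probes gave pooled values of 0.87 and 0.11. SLC22A4, an organic cation and ergothioneine transporter, was detected on no empty vector array, on both SETDB1 OE arrays and on 1 of 3 HC/KA-SETDB1 OE arrays. It was at least 2.26-fold higher in SETDB1 OE and at least 1.59-fold higher in the constructs together.

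Without HC/KA-SETDB1 OE replicate 2 the 16 genes had log2 values from -2.03 for PYCARD to 1.32 for FOXF1. PMEL (-1.65, adjusted p = 0.043) and CEACAM1 passed in that setting. The 16 were picked with every construct array beyond every control, so leaving out an array cannot change their direction. Nothing is therefore read from their signs in that setting. PMEL's adjusted p ran from 0.0301 to 0.545 over the alternatives apart from the larger of both constructs' p-values.

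Of the 31 lists examined, the pigment cell list had the largest share of members below the controls on all 5 construct arrays. Of 26 genes on the list 22 were measured, 19 had a negative pooled value, 11 had an unadjusted p under 0.05, all lower (3.82% of all genes tested), and 8 lay below the controls on all 5 arrays (2.39% of all genes). None passed the adjusted test. The median pooled value was -0.57, against 0.0073 over all genes tested, with medians of -0.80 in SETDB1 OE and -0.11 in HC/KA-SETDB1 OE. Without HC/KA-SETDB1 OE replicate 2 the pooled median was -0.52. In these bulk samples, fewer cells of a type and less RNA per cell cannot be told apart.

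Among the melanosome genes, PMEL, which builds the fibrils of the melanosome, read 13.38, 12.89 and 12.97 in empty vector, 10.95 and 11.38 in SETDB1 OE and 11.46, 10.44 and 11.93 on the HC/KA-SETDB1 OE arrays. All 5 construct arrays lay below the controls, and the lowest of all was HC/KA-SETDB1 OE replicate 2, the array that over all genes resembled a control. The pooled value was -1.86 (SE 0.30, 95% interval -2.53 to -1.19, adjusted p = 0.0778), or 3.63-fold lower, and the constructs differed by -0.11 (95% interval -0.94 to 0.72). TSPAN10, a tetraspanin of pigment cells, read 9.44, 8.93 and 8.90 in empty vector, 7.0 and 8.07 in SETDB1 OE and 7.98, 7.07 and 7.68 on the HC/KA-SETDB1 OE arrays. Its pooled value was -1.54 (SE 0.29, adjusted p = 0.124), with nearly equal values of -1.56 and -1.52. MLANA, a melanosomal antigen, read 9.81, 9.46 and 9.09 in empty vector, 8.17 and 8.91 in SETDB1 OE and 8.44, 8.12 and 8.84 on the HC/KA-SETDB1 OE arrays, a pooled value of -0.95 (SE 0.25, adjusted p = 0.329). SLC24A5, a melanosomal cation exchanger, gave -0.53 (adjusted p = 0.379) from readings close to background.

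Members with other roles followed. BCL2A1, an antiapoptotic BCL2 relative in the MITF programme, read 6.37, 6.69 and 6.40 in empty vector, 6.19 and 5.73 in SETDB1 OE and 5.06, 4.82 and 5.25 on the HC/KA-SETDB1 OE arrays, a pooled value of -0.98 (SE 0.18, adjusted p = 0.125). Here the HC/KA-SETDB1 OE arrays were lowest, and the constructs differed by 0.92 (95% interval 0.41 to 1.42, adjusted p = 0.0504). KIT, the receptor for stem cell factor, gave -0.49, and ST3GAL6, a sialyltransferase, gave -0.69 (adjusted p = 0.447 and 0.479). The remaining lineage genes did not share this pattern. TYR, which catalyses the first step from tyrosine to melanin, read 11.32, 10.62 and 11.04 in empty vector, 9.48 and 9.50 in SETDB1 OE and 11.05, 10.99 and 11.30 on the HC/KA-SETDB1 OE arrays, so its pooled -0.69 came from -1.50 and 0.12 (adjusted p of the difference = 0.00772). MITF, the lineage's master transcription factor, gave -1.13 in SETDB1 OE and 0.08 in HC/KA-SETDB1 OE, and PPARGC1A, a coactivator of mitochondrial genes, gave -2.14 and 0.34. SOX10, which maintains the lineage, gave a pooled value of -0.01 (95% interval -0.50 to 0.49).

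**Figure D4:**
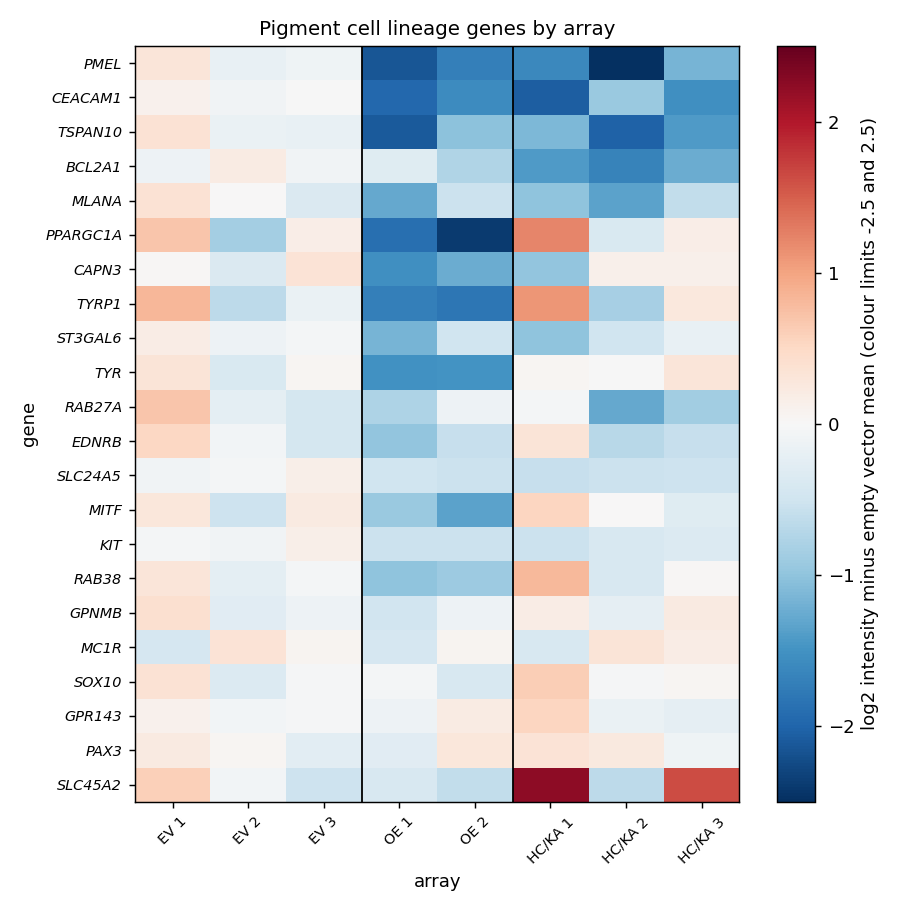
Log2 intensity minus the empty vector mean (colour, with limits of -2.5 and 2.5) for the 22 measured pigment cell lineage genes (rows, ordered by pooled value) on the 8 arrays (columns). PMEL, CEACAM1, TSPAN10, BCL2A1 and MLANA are below the controls on all 5 construct arrays, whereas TYR is low on the SETDB1 OE arrays and near the controls on the HC/KA-SETDB1 OE arrays.

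Upstream sequence is shown for CEACAM1, TSPAN10 and BCL2A1, the pigment list members of smallest p that lay below the controls on all 5 arrays and have an entry in the RefSeq promoter table (GRCh38.p14). PMEL is named only. The 250 bases before each annotated start are printed 5′ to 3′ on the gene's strand. Capitals mark the letters CATGTG or CACGTG, the E-box forms that MITF is known to bind, searched on both strands, so that a match of the first on the opposite strand is printed as CACATG. The other form reads the same on both strands, and no matches overlap.
CEACAM1 (chr19:42528482-42528731, minus strand): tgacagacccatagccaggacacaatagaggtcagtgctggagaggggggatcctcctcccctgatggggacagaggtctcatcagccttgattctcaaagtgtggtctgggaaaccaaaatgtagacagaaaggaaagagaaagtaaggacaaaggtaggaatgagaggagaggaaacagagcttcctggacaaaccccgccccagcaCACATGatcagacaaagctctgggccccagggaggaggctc
TSPAN10 (chr17:81642055-81642304, plus strand): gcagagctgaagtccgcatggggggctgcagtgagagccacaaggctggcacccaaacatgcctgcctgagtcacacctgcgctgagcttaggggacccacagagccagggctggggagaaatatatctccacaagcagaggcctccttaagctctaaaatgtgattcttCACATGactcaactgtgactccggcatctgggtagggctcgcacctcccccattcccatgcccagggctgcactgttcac
BCL2A1 (chr15:79971197-79971446, minus strand): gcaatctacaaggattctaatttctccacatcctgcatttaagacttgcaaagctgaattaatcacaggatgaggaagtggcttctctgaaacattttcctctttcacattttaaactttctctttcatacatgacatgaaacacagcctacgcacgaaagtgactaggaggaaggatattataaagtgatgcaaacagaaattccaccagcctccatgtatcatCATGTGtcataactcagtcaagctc
Each held 1 match, which began 41 bases before the start in CEACAM1, 80 in TSPAN10 and 25 in BCL2A1. SLC24A5 held 1 match and ST3GAL6 held 1 in 1 of its 4 entries, while the letters were not in the windows of MLANA and KIT. Of all 35116 promoter entries, 15.2% held a match in the same window. A match is a description of the letters, and no binding was measured here.

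Genes of the dedifferentiated or invasive melanoma state lay above the controls mainly on the SETDB1 OE arrays. Of 26 measured, 21 had a positive pooled value and 9 had an unadjusted p under 0.05, all higher (3.4% of all genes), but the medians were 0.93 in SETDB1 OE and -0.11 in HC/KA-SETDB1 OE. The pooled median was 0.49. EGFR, a growth factor receptor, was the only member above the controls on all 5 construct arrays (2.04% of all genes). It read 4.81, 4.66 and 4.55 in empty vector, 5.91 and 5.08 in SETDB1 OE and 5.27, 5.21 and 5.96 on the HC/KA-SETDB1 OE arrays, a pooled value of 0.82 (SE 0.24, adjusted p = 0.413). By contrast AXL, another receptor kinase, gave 1.19 in SETDB1 OE and -0.07 in HC/KA-SETDB1 OE (adjusted p of the difference = 0.0184), and ANKRD1, a YAP target, gave 2.28 and 0.02 (adjusted p of the difference = 0.000461).

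Inflammatory cytokines and NF-kappaB targets lay above the controls mainly on SETDB1 OE replicate 1. Of 24 measured, 7 had an unadjusted p under 0.05, all higher (3.4% of all genes), and none lay above the controls on all 5 construct arrays (2.04% of all genes). Their medians were 0.39 pooled, 0.69 in SETDB1 OE and -0.03 in HC/KA-SETDB1 OE. By array the median was 1.35 and 0.24 in SETDB1 OE against -0.03, 0.18 and -0.27 in empty vector, so SETDB1 OE replicate 2 lay close to the highest control. The difference between the constructs was not tested for the list. IL6 gave 3.15 in SETDB1 OE and -0.29 in HC/KA-SETDB1 OE, and CXCL8, which draws neutrophils, gave 2.40 and 0.51. CCL5, a T-cell chemokine, leaned the other way, at 0.20 and 1.06.

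Among 33 measured interferon-stimulated genes the pooled median was -0.01, and 2 had an unadjusted p under 0.05 as higher (3.4% of all genes) and 3 as lower (3.82%). ISG20, an exonuclease against viral RNA, read 10.93, 11.10 and 10.77 in empty vector, 10.11 and 9.30 in SETDB1 OE and 8.83, 9.73 and 8.45 on the HC/KA-SETDB1 OE arrays. Its pooled value was -1.58 (SE 0.29, adjusted p = 0.124), and it passed without HC/KA-SETDB1 OE replicate 2. HERC5, the ligase that attaches ISG15 to proteins, also lay below the controls on all 5 arrays, at -0.79 (SE 0.20, adjusted p = 0.296). IRF9, a subunit of the interferon-activated factor, gave 0.44, and IFIT2, an antiviral RNA-binding protein, gave 0.43, both positive in each construct. MX1, an antiviral GTPase, was low in HC/KA-SETDB1 OE (-2.24) and not in SETDB1 OE (-0.11, adjusted p of the difference = 0.0101). Of 25 measured antigen presentation genes, 21 had a positive pooled value with a median of 0.07. HLA-B alone lay above the controls on all 5 construct arrays (2.04% of all genes), at 0.53 (SE 0.20, adjusted p = 0.579).

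Germline genes are a known class of SETDB1 targets. Of 54 measured cancer-testis genes, 20 had an unadjusted p under 0.05 as higher (3.4% of all genes) and 2 as lower (3.82%). Above the controls on all 5 construct arrays lay 4 (2.04% of all genes). Their median was 0.13. The 20 were mostly copies of a few families whose probes may read near-identical transcripts, so they do not count as 20 separate genes. All 12 GAGE genes measured on the arrays, on the list or not, had a positive pooled value with an unadjusted p under 0.05 (3.4% of all genes). The pooled values ran from 0.49 to 1.16, and the adjusted p from 0.181 to 0.605. Set against the empty vector mean, the median of these 12 genes was -0.21 to 0.14 on the control arrays, 1.06 and 0.02 on the SETDB1 OE arrays, and 1.27, 1.28 and 0.88 on the HC/KA-SETDB1 OE arrays. SETDB1 OE replicate 2 thus lay within the controls. GAGE12G and GAGE4 were above the controls on all 5 construct arrays. The 6 SPANX genes had another pattern: their median was 3.19 and 2.88 on the SETDB1 OE arrays and -0.22, -0.05 and 0.15 on the HC/KA-SETDB1 OE arrays. Of 13 MAGE genes measured, 4 had a positive pooled value and 2 an unadjusted p under 0.05, both higher (3.4% of all genes), with a median of -0.02. SPANXN3 was the exception among the SPANX genes, with 8.71 and 7.88 in SETDB1 OE and 8.97, 8.80 and 8.38 on the HC/KA-SETDB1 OE arrays over 7.78, 7.50 and 7.70 in empty vector, a pooled value of 0.85 (SE 0.22, adjusted p = 0.334). MAEL, which acts in the piRNA pathway that silences transposons in germ cells, read 5.22, 5.65 and 5.44 in empty vector, 7.16 and 6.22 in SETDB1 OE and 6.92, 6.06 and 6.04 on the HC/KA-SETDB1 OE arrays. Its pooled value was 1.08 (SE 0.27, adjusted p = 0.296), from 1.26 and 0.90. PAGE2, a relative of the GAGE genes, stood on the other side, at -2.59 (SE 0.56, adjusted p = 0.189), with control arrays that themselves spread from 7.35 to 9.85.

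Zinc finger genes and SETDB1's own partners differed little in both constructs. Of 374 measured ZNF genes, 14 had an unadjusted p under 0.05 as higher (3.4% of all genes) and 4 as lower (3.82% of all genes), and 9 lay above the controls on all 5 construct arrays (2.04% of all genes) and 1 below (2.39%). The higher counts were near the share over all genes. Their median was 0.06, with 0.10 in HC/KA-SETDB1 OE and -0.0024 in SETDB1 OE. ZNF816 read 6.05, 6.11 and 5.62 in empty vector, 6.53 and 6.64 in SETDB1 OE and 6.90, 6.42 and 7.15 on the HC/KA-SETDB1 OE arrays, a pooled value of 0.78 (SE 0.21, adjusted p = 0.336). ZNF83 and ZNF415 came from a single construct, at 2.07 and 1.69 in HC/KA-SETDB1 OE against 0.16 and -0.02 in SETDB1 OE. ZNF415 was not detected on any array of the other groups, so it was at least 3.01-fold higher in HC/KA-SETDB1 OE than in empty vector. Of 35 measured partners and heterochromatin genes the median was -0.05. An unadjusted p under 0.05 was found for 1 as higher (3.4% of all genes) and 1 as lower (3.82%). Of the 35, 3 lay below the controls on all 5 arrays (2.39% of all genes). These were CHAF1B, a histone chaperone subunit that works at replication (-0.60, adjusted p = 0.646), KDM4B, a histone H3 demethylase (-0.43, adjusted p = 0.693), and CBX3, a heterochromatin protein of the HP1 family (-0.33, adjusted p = 0.741). Among 20 measured imprinted genes, 4 had an unadjusted p under 0.05, all lower (3.82% of all genes). CDKN1C, a cell cycle inhibitor, gave -0.56, NDN, a growth suppressor of neurons, gave -0.60, MKRN3, a ubiquitin ligase, gave -0.40, and SNRPN, a splicing protein, gave -0.46. The last 3 of these lie in the imprinted region of chromosome 15, and their adjusted p ran from 0.571 to 0.648.

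Of 37 measured G1 and S phase genes, 34 had a negative pooled value (6810 of all 13974 genes), with a median of -0.25. Yet 1 had an unadjusted p under 0.05, as lower (3.82% of all genes). The medians were -0.05 in SETDB1 OE and -0.48 in HC/KA-SETDB1 OE, and by array -0.94, -0.08 and -0.47 in the latter against -0.16, 0.06 and 0.19 in empty vector. HC/KA-SETDB1 OE replicate 1 was the lowest array, and HC/KA-SETDB1 OE replicate 2 lay within the controls. CDC45, a helicase component of replication forks, gave -0.83 (SE 0.38, adjusted p = 0.706), from -0.31 in SETDB1 OE and -1.35 in HC/KA-SETDB1 OE. Of 35 measured G2 and M phase genes 28 were negative, with a median of -0.10. CENPA, the centromeric histone, was the single member below the controls on all 5 arrays (2.39% of all genes), at -0.52 (SE 0.21, adjusted p = 0.611). A second CENPA probe overlapped the controls, at -0.25. Among 24 p53 targets, CDKN1A, which blocks cyclin-dependent kinases, was the single member above the controls on all 5 construct arrays (2.04% of all genes), at 0.44 (adjusted p = 0.611). A second, dimmer CDKN1A probe overlapped the controls, at 0.35.

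Matrix and adhesion genes held members of both directions. VCAN, a large proteoglycan, read 8.31, 8.41 and 8.69 in empty vector, 7.39 and 8.21 in SETDB1 OE and 6.34, 7.11 and 6.82 on the HC/KA-SETDB1 OE arrays, a pooled value of -1.19 (SE 0.24, adjusted p = 0.152). COL5A1, a fibrillar collagen chain, read 6.25, 7.09 and 7.31 in empty vector, 7.41 and 7.85 in SETDB1 OE and 7.64, 7.89 and 8.29 on the HC/KA-SETDB1 OE arrays, a pooled value of 0.90 (SE 0.26, adjusted p = 0.407). ALCAM, a homophilic adhesion molecule, read 8.44, 8.17 and 8.57 in empty vector, 8.82 and 9.19 in SETDB1 OE and 9.06, 9.11 and 9.27 on the HC/KA-SETDB1 OE arrays, a pooled value of 0.68 (SE 0.17, adjusted p = 0.3). CD9, a tetraspanin, also lay above the controls on all 5 arrays, at 0.65. Over the 39 measured matrix genes the median was 0.08, and 6 had an unadjusted p under 0.05 as higher (3.4% of all genes) and 3 as lower (3.82%). Over the 25 adhesion genes the median was 0.10, with 2 in each direction.

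In metabolism, PHGDH, the first enzyme of serine synthesis, stood out for tight controls. It read 11.14, 11.14 and 11.13 in empty vector, 10.23 and 10.73 in SETDB1 OE and 10.20, 10.03 and 10.25 on the HC/KA-SETDB1 OE arrays, a pooled value of -0.82 (SE 0.17, adjusted p = 0.165), from -0.66 and -0.98. It was the 1 gene of 27 measured on the stress response list with an unadjusted p under 0.05, as lower (3.82% of all genes). That count was near the share over all genes. Of 26 measured cholesterol and fatty acid synthesis genes, 21 had a negative pooled value with a median of -0.16. ELOVL6, a fatty acid elongase, read 9.49, 8.84 and 9.07 in empty vector, 8.72 and 8.54 in SETDB1 OE and 8.68, 8.18 and 8.37 on the HC/KA-SETDB1 OE arrays (-0.61, SE 0.20, adjusted p = 0.466), and its second probe was also apart, at -0.68. FDPS, which makes farnesyl pyrophosphate, gave -0.55 (adjusted p = 0.483). P4HA2, a collagen prolyl hydroxylase induced by hypoxia, lay above the controls on all 5 arrays (0.58, SE 0.17, adjusted p = 0.413). It gave 0.29 in SETDB1 OE and 0.86 in HC/KA-SETDB1 OE. Its other passing probes overlapped the controls, at 0.43 and 0.49 pooled. The 28 measured hypoxia and glycolysis genes had a median of -0.03, and P4HA2 was the 1 member above the controls on all 5 arrays (2.04% of all genes). The 45 oxidative phosphorylation genes had a median of -0.03 and no member with an unadjusted p under 0.05 (7.22% of all genes). The 75 cytosolic ribosomal proteins likewise had a median of -0.03 and none.

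Neuronal genes had similar medians in both constructs, -0.08 in SETDB1 OE and -0.04 in HC/KA-SETDB1 OE. Of 36 measured, 3 had an unadjusted p under 0.05 as higher (3.4% of all genes) and 8 as lower (3.82% of all genes), with a pooled median of -0.05. STMN3, a microtubule regulator, read 10.90, 11.24 and 11.09 in empty vector, 10.02 and 10.79 in SETDB1 OE and 10.27, 10.52 and 10.81 on the HC/KA-SETDB1 OE arrays (-0.61, SE 0.21, adjusted p = 0.535). SYN2, a synaptic vesicle protein, gave -0.57 with all 5 arrays below the controls. TUBB4A, a neuronal tubulin, came from SETDB1 OE alone (-1.83 against 0.16, adjusted p of the difference = 0.00984), and NELL1, a secreted growth regulator, more from HC/KA-SETDB1 OE (-2.49 against -0.92, adjusted p of the difference = 0.0376). Among 45 growth factor, Wnt and Notch genes the median was 0.10. Of them, 4 had an unadjusted p under 0.05 as higher (3.4% of all genes) and 8 as lower (3.82%). HES6 and PDGFA lay below the controls on all 5 construct arrays (2.39% of all genes). HES6, a helix-loop-helix factor that opposes HES1, read 9.87, 10.02 and 9.46 in empty vector, 8.21 and 8.49 in SETDB1 OE and 9.28, 9.17 and 9.12 on the HC/KA-SETDB1 OE arrays (-1.01, SE 0.18, adjusted p = 0.106). PDGFA, a platelet-derived growth factor chain, read 6.87, 6.45 and 6.23 in empty vector, 5.65 and 5.28 in SETDB1 OE and 5.67, 5.87 and 6.08 on the HC/KA-SETDB1 OE arrays (-0.85, SE 0.20, adjusted p = 0.244).

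The remaining lists held few members that stood apart. Of 50 measured histone genes, 7 had an unadjusted p under 0.05 as higher (3.4% of all genes) and 1 as lower (3.82%), with a median of 0.14. H1-2, a linker histone, was the member above the controls on all 5 arrays (2.04% of all genes), at 0.62 (SE 0.19, adjusted p = 0.437). H4C3, a core histone gene, and H3-3A, a replacement histone, lay below the controls on all 5 arrays (2.39% of all genes), at -0.61 and -0.32. PCDHAC2, a clustered protocadherin of neuronal cell surfaces, gave 0.69 (SE 0.19, adjusted p = 0.368) from 1 of its 3 passing probes, and the other probes gave -0.03 and 0.05. The TGF-beta, MAPK, neural crest and HOX lists had pooled medians of 0.16, 0.17, 0.0024 and -0.02, and of the HOX genes 2 of 26 had an unadjusted p under 0.05, both lower (3.82% of all genes). EPHA2 was the MAPK list's member above the controls on all 5 arrays (2.04% of all genes).

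**Figure D5:**
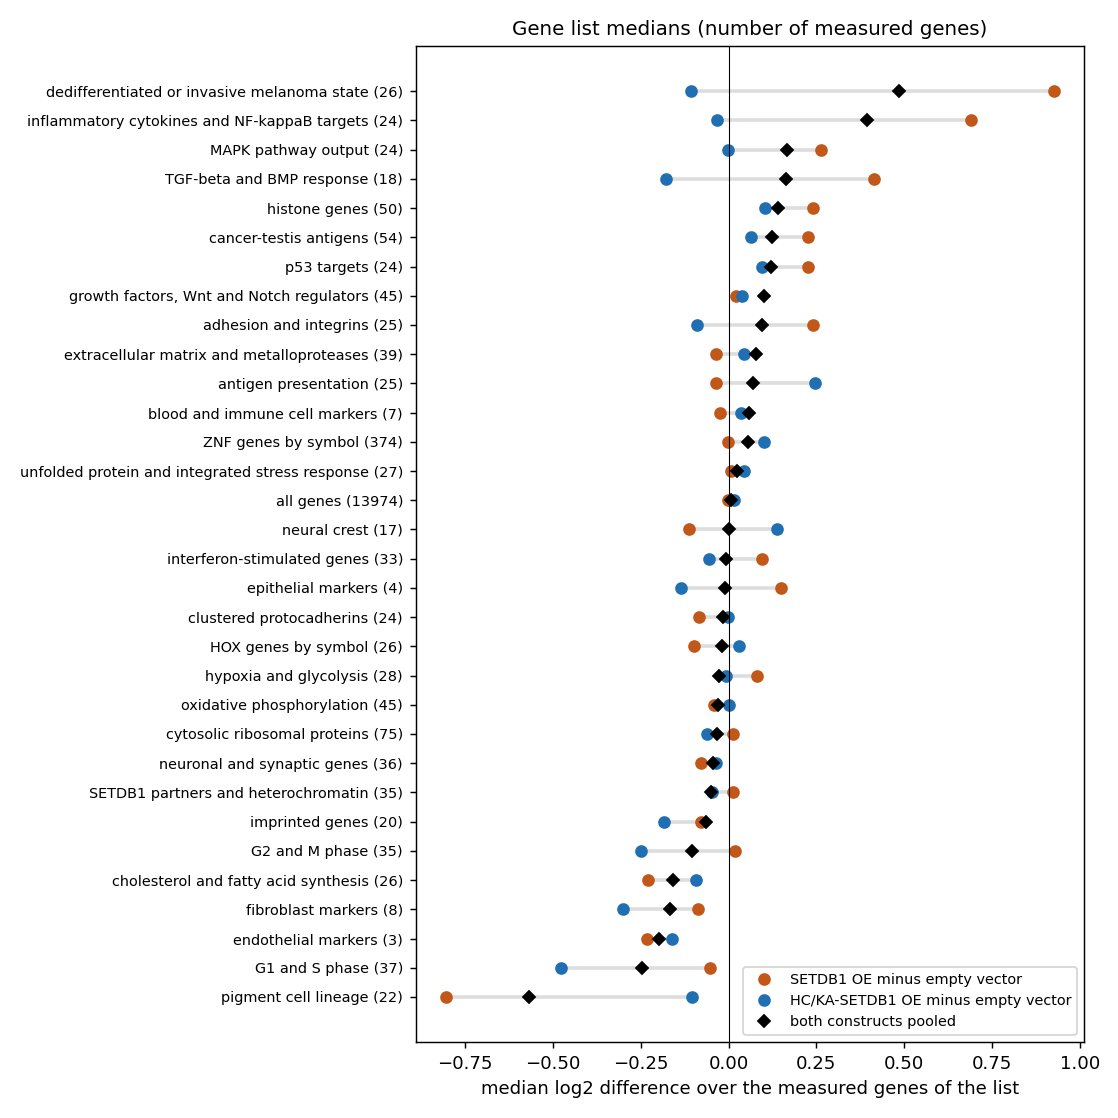
Median log2 difference from empty vector over the measured genes of each list (number in brackets), for both constructs pooled (diamonds) and for each construct (circles). The pigment list has medians of -0.57 pooled, -0.80 in SETDB1 OE and -0.11 in HC/KA-SETDB1 OE, and the median of all genes lies at 0.0073.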

How the data were processed

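The authors deposited, per the file headers, 1 linear, unnormalized bead intensity for every probe on every array, and a detection p-value for it. A processed log2 table was deposited as well, whose columns all had a median of 6.53 and which served as an alternative only. How the scanner software made these values is not stated in the material at hand. RNA was extracted with Trizol, cleaned on columns with DNase and labelled as biotinylated cRNA, per the labels' protocols.

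Of 48107 probes, 5 with missing values were dropped. Symbols came from the platform annotation, updated through RefSeq genes of GRCh38.p14, where 30110 probes had 1 symbol, 8 had several and 17984 were not listed, and 30071 were found in the RefSeq table. Only probes with a single symbol were given names. Intensities were background-corrected and quantile-normalized with neqc (background from the detection p-values, offset 16) in limma 3.58.1 under R 4.3.3, with the data.table package (version 1.17.8). Plots used matplotlib 3.10.9 under Python 3.11.15. Probes were kept if 2 or more arrays had a detection p below 0.05 (26689 probes), and the brightest passing probe stood for a gene, which gave 13974 genes, 3815 of them with more than 1 passing probe.

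The pooled contrast (0.5 for each construct, -1 for empty vector) was fitted with lmFit, contrasts.fit and eBayes to all 8 arrays, two-sided, with Benjamini-Hochberg adjustment over all genes and a threshold of 0.05. The median SE was 0.20 and the median half-width of a 95% interval 0.44 on the log2 scale, which the number of arrays limits. The script was tested on simulated data. SETDB1 and THBS1 were always named. Called genes without overlap came next, up to 15 per direction, and since none was called the uncalled genes of smallest p without overlap filled up to 8 per direction, followed by up to 3 members per list. Other list members were chosen after their values were seen. The comparison, the 31 lists and the rule for names were chosen with earlier results of these data known. A fold against a group that detected the probe on no array is a bound: the bright group's mean against the dim group's mean of, per array, the higher of the probe's own value and the lowest detected value.

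Replicate numbers in the labels were checked as pairs. The deviations from group means of same-numbered empty vector and construct arrays correlated at 0.12 to 0.46 over 5 pairs, all above 0.1, so the replicate block is given beside the main count. A differently numbered pair, empty vector replicate 3 with HC/KA-SETDB1 OE replicate 2, correlated at 0.36, above all same-numbered pairs but the highest. The other differently numbered pairs of a control with a construct array ran from -0.46 to 0.06. The numbers thus do not clearly mark pairs. Between same-numbered construct arrays the lowest value was 0.03. Deviations within a group of 2 mirror each other, so its pairs are not separate evidence. The 20 alternatives changed the background correction, scaling, source of values, filters, probe rule, block, weights, variance model and pooling, or left out an array.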

Additional observations from a re-analysis of the deposited data

Results flagged for a closer look

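For 24 of the 101 genes named by the rule, the constructs differed from each other by a test of the difference itself (limma, adjusted over 13974 genes). For these the pooled value averages unlike numbers. Over all genes tested the share was 4.34%. The 101 were mostly picked by the pooled p from the same arrays, and a large value in a single construct enters both tests. Nothing is therefore read from that excess. All values here are SETDB1 OE minus HC/KA-SETDB1 OE on the log2 scale. Where a construct did not detect the gene on any array, the fitted value is no exact difference and a lower bound on the fold is given.

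Higher in SETDB1 OE were the matrix and YAP-linked genes MMP3 3.92 (adjusted p = 2.09e-04), THBS1 3.51 (adjusted p = 3.11e-04) and ANKRD1 2.26 (adjusted p = 4.61e-04), and the cancer-testis genes SPANXA1 3.97 (adjusted p = 1.84e-04), SPANXB1 3.13 (adjusted p = 3.39e-04) and SPANXC 3.02 (adjusted p = 3.39e-04). The secretory-granule chaperone SCG5 differed by 2.86 (adjusted p = 3.39e-04) and was detected only on SETDB1 OE arrays, where it was at least 6.89-fold higher than in HC/KA-SETDB1 OE. Cytokines were among them too, with IL6 3.44 (adjusted p = 0.0114) and IL1B 1.94 (adjusted p = 0.015), as were the cystine transporter SLC7A11 1.34 (adjusted p = 0.0109), the core histone H4C8 1.83 (adjusted p = 0.0166) and the transporter SLC22A4 1.0 (adjusted p = 0.018).

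Some genes stood higher in SETDB1 OE with HC/KA-SETDB1 OE arrays that lay below the empty vector. These were the secreted proteins DKK3 4.94 (adjusted p = 1.84e-04), FSTL5 1.74 (adjusted p = 0.0217), NELL1 1.57 (adjusted p = 0.0376) and PLA1A 1.58 (adjusted p = 0.0136), the proteoglycan DCN 1.20 (adjusted p = 0.0478), the antiviral MX1 2.13 (adjusted p = 0.0101) and the ribosomal protein RPS7 1.36 (adjusted p = 0.0178). Lower in SETDB1 OE were ZNF415 -1.71 (adjusted p = 0.00705), ZNF83 -1.91 (adjusted p = 0.0197), EEF1A2 -1.12 (adjusted p = 0.018), ITGA9 -1.21 (adjusted p = 0.0492) and HOXB8 -0.91 (adjusted p = 0.0334). HC/KA-SETDB1 OE did not detect DKK3, ANKRD1, FSTL5, SLC7A11 or DCN, which were at least 29.6-fold, 4.79-fold, 3.25-fold, 2.42-fold and 2.16-fold higher in SETDB1 OE. SETDB1 OE did not detect ZNF415, which was at least 3.0-fold higher in HC/KA-SETDB1 OE. ITGA9, an integrin chain, and HOXB8, a homeobox factor, lay below the controls in SETDB1 OE, while both ZNF genes and EEF1A2 stood above them in HC/KA-SETDB1 OE.

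Over the alternatives in which the difference was tested, THBS1, MMP3, DKK3, ANKRD1, SCG5, SPANXA1, SPANXB1 and SPANXC passed under each, while DCN passed under 6 of 17 and ITGA9 under 7 of 18.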

How the results depend on the processing

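The number of genes that passed in the pooled comparison was 0 as reported and stayed at 0 with no background correction, with the authors' processed log2 values, under each other detection filter (all 8 arrays, a detection p below 0.01 on 3 or more arrays, and none), with the 5 construct arrays as 1 group and with the larger p of both constructs. It was 10 (3 higher, 7 lower) with scaling to the 75th percentile, 9 (7 and 2) with the mean of passing probes, 4 (2 and 2) with the replicate block, 30 (11 and 19) with array weights and 20 (8 and 12) with trended robust variances. Leaving out 1 array gave 0 to 12 genes (0 to 6 higher, 0 to 6 lower), with 2 without empty vector replicate 2, 12 without SETDB1 OE replicate 2 and 5 without HC/KA-SETDB1 OE replicate 2. In all, 36 genes passed under at least 1 alternative. Genes that differed between the constructs, 606 as reported, numbered 274 with no filter, which tests 20044 genes, and 1159 with array weights. Leaving out 1 array gave 41 (without SETDB1 OE replicate 1) to 1315 (without HC/KA-SETDB1 OE replicate 2), with 65 without SETDB1 OE replicate 2, 153 without HC/KA-SETDB1 OE replicate 3, 309 without empty vector replicate 2 and 374 without empty vector replicate 3. SETDB1's pooled value ran from -0.0588 to 0.132 when 1 array was left out, so its sign is not settled. It was -0.0142 without empty vector replicate 3, -0.0401 without SETDB1 OE replicate 1 and -0.0588 without HC/KA-SETDB1 OE replicate 3. CLDN4 turned to -0.0917 under 75th percentile scaling and KRT18 to 0.00393 without empty vector replicate 2 (-0.246 to 0.00393 over the arrays left out), both near background. The cause of these shifts was not tested. Among the other values of named genes, 1900 kept their direction and side of the threshold and 78 passed under an alternative only. Of the tested differences between the constructs, 335 stayed past the threshold and 80 did not. List medians moved in 31 cases over 12 of 31 lists. The pigment list was not among them, the invasive list was 0.34 without empty vector replicate 3, the MAPK list turned to -0.0053 without that array, and the ZNF list turned to -0.03 under 75th percentile scaling, where the median of all genes was -0.06. With 2 arrays in SETDB1 OE, leaving 1 out assumes that the lone array varies like the other groups. The background signal had an SD of 25.9 on empty vector replicate 2 and 13.7 on SETDB1 OE replicate 1, against 4.58 to 6.77 on the other arrays, which limits genes near background.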

Other observations

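Genes outside the lists and the rule for names passed under single alternatives and are given as values only, chosen after they were seen. CD24, a surface glycoprotein, was among the 20 genes of smallest p, with a pooled log2 value of 1.15 (SE 0.18, adjusted p = 0.0561, limma), from 2.35 in SETDB1 OE and -0.05 in HC/KA-SETDB1 OE. It read 5.26, 5.05 and 4.81 in empty vector, 7.61 and 7.16 in SETDB1 OE and 4.99, 5.01 and 4.98 on the HC/KA-SETDB1 OE arrays. FAM133A, also among those 20, gave -1.0 (SE 0.17, adjusted p = 0.0995) from -0.02 and -1.98. HMOX1, the enzyme that breaks down heme, passed only without SETDB1 OE replicate 2 and gave 1.24 with all arrays (adjusted p = 0.244), from 2.38 and 0.10. SPATS1 passed only without HC/KA-SETDB1 OE replicate 2 and gave -1.42 with all arrays (adjusted p = 0.398).

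With the larger p of both constructs as the test of a shared difference, 173 genes had a p under 0.05 with the same direction in each, out of 13974, and 0 passed after adjustment.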
